A study of Mus musculus with 40 samples.

Results

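The effect of MitoGamide without diabetes was examined in the kidney cortex of wild type (WT) mice, comparing 5 mice given MitoGamide with 5 mice given the ethanol vehicle. All 10 animals were male, non-diabetic C57BL/6J littermates of Ins2-Akita mice. From 6 to 22 weeks of age they received either 10% ethanol in water or MitoGamide at 10 mg/kg, each once a day by oral gavage. MitoGamide is taken here to have been given in the ethanol vehicle, so that both groups received ethanol. The methods name ethanol for the vehicle only. Mice were placed in metabolic cages at 12 and at 21 weeks, the latter 1 week before they were killed. RNA was taken from the cortex of each mouse separately, so each library is 1 animal. Genes were included if their mean over these 10 libraries was at least 10 counts, which left 17395 of the 55401 genes of the table (31.4%). The series holds 40 libraries in 8 groups, and the other groups used here are Akita mice on the same vehicle or on MitoGamide, and WT mice given water or MitoQ.

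MitoGamide is a scavenger of 1,2-dicarbonyls such as methylglyoxal that is carried into mitochondria by a lipophilic cation. Methylglyoxal arises mainly as a by-product of glycolysis, modifies arginine residues of proteins, and is normally cleared by the glyoxalase enzymes with help from aldehyde dehydrogenases and aldo-keto reductases. The cortex consists largely of proximal tubule, whose cells are rich in mitochondria and burn fatty acids to drive reabsorption. The WT mice therefore show what daily exposure to the compound was accompanied by where glucose was not raised.

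Total counts ranged from 15289948 to 24321424 in the ethanol libraries and from 11690029 to 21357309 in the MitoGamide libraries. Levels are given as CPM, the counts of a gene scaled to the effective library size, by TMM. A fold change is MitoGamide relative to ethanol on the log2 scale with its standard error. Only the summed levels of cell markers are CPM of the total counts, without the TMM factor. This factor was 1.01 to 1.12 in ethanol and 0.91 to 1.03 in MitoGamide libraries. These sums therefore do not compare the groups on the scale of the fold changes. Markers of the labelled tissue were present, with 12 of 12 proximal tubule markers measured. Their summed level, without the TMM factor, was 19424 to 22187 CPM in ethanol and 18231 to 19680.3 CPM in MitoGamide libraries. By fold change 6 of the 12 were higher and 6 lower with MitoGamide, with a median of -0.01. Skeletal muscle markers summed to at most 2.60 CPM in any library. In such bulk tissue, fewer cells of a type and less RNA per cell cannot be told apart. MitoGamide replicate 1 lay at one end of the first principal component, which held 25.1% of the variance, while ethanol replicate 2 and MitoGamide replicate 5 lay together at the other end. MitoGamide replicates 2, 3 and 4 carried more nuclear ribosomal RNA, as described further on. MitoGamide replicate 5 had the highest median of all 10 libraries for endothelial (0.67), fibroblast and mural (0.70), macrophage (0.48) and red cell markers (1.52), each on the log2 scale relative to the ethanol mean. The next highest libraries were at 0.23, 0.22, 0.34 and 0.97, and the part of these cells in the values of that library given below was not tested.

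No single gene passed the test in WT mice. With edgeR's quasi-likelihood test, 0 of 17395 genes had a Benjamini-Hochberg adjusted p under 0.05 (0%), and the smallest adjusted p was 0.307. At an unadjusted p under 0.05 there were 1841 genes (10.6%), of which 937 were higher (5.39%) and 904 were lower with MitoGamide (5.20%). DESeq2 called 73 genes (0.420%), 49 higher (0.282%) and 24 lower (0.138%), with 1672 genes at an unadjusted p under 0.05 (9.61%), but gave no adjusted p for 7421 genes. With offsets for the GC content and length of the genes, an alternative chosen after seeing the data, DESeq2 called 7. These were Fga, Zfp971, Ugt1a2, Gm29216, Gm45792, Gm48916 and CT010467.2, and no other DESeq2 call named below was made in that fit. Differences were small in the edgeR fit, with a median size of 0.12 on the log2 scale and a median standard error of 0.13. Only 87 genes differed by over 2-fold, and 17 of these had a mean of at least 100 counts. Thus the values below are differences that edgeR did not separate from the spread between mice, and a gene that is not called is not shown to be unchanged.

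The direction of the differences followed the base composition of the genes. Genes were put into 5 bins of equal size by the GC content of their longest transcript. In the bin with the lowest GC content (30.8% to 42.6%) the median log2 fold change was 0.12, and 544 genes were higher and 17 lower at an unadjusted p under 0.05. In the bin with the highest GC content (54.7% to 75.5%) the median was -0.12, with 16 genes higher and 547 lower. The bins between them fell in order, as the plot of the MitoGamide effect by GC content shows. Of the genes called by DESeq2, 37 of the 49 higher ones lay in the bin with the lowest GC content and 14 of the 24 lower ones in that with the highest. With offsets for GC content and length in edgeR, the bin medians lay between -0.000885 and 0.01, 941 genes had an unadjusted p under 0.05 (5.41%), 515 higher (2.96%) and 426 lower (2.45%), and 0 were called. Akita mice, whose libraries are different ones, showed the same order, with medians from 0.09 to -0.10. RNA integrity of the samples is not given in the sources used here, and its part in this gradient was not tested. Most groups of genes below are therefore given with and without these offsets.

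**Figure D1:**
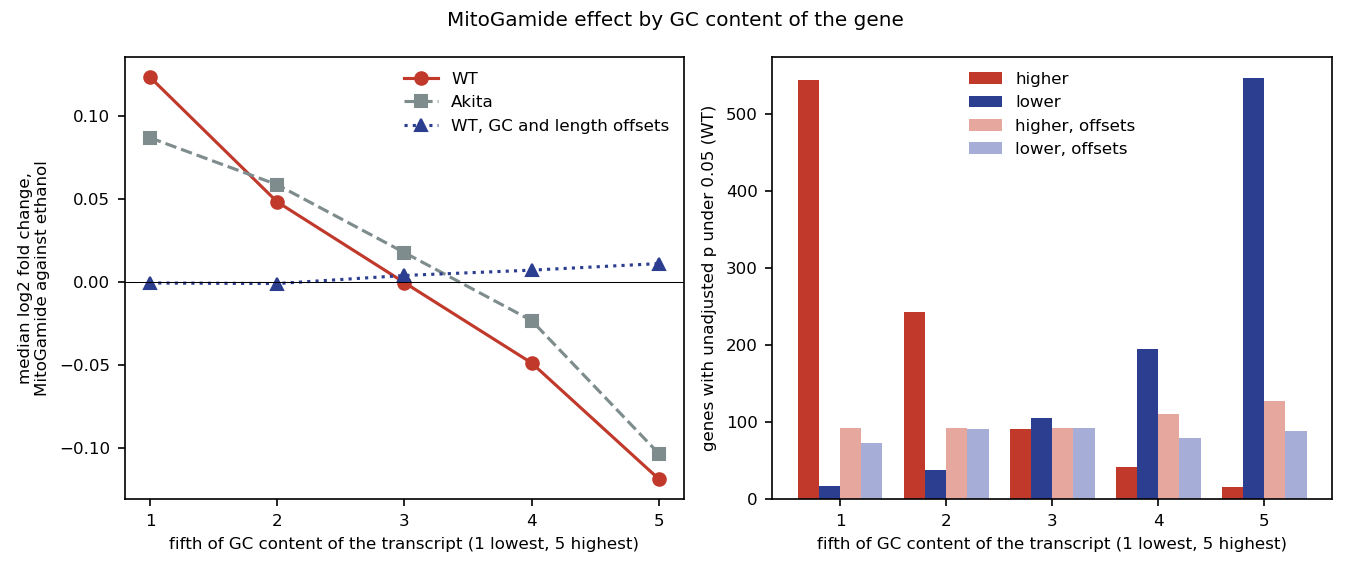
The MitoGamide effect by GC content. Left, the median log2 fold change in each of 5 bins of genes, from lowest to highest GC content, in WT mice, in Akita mice, and in WT mice with GC and length offsets; right, the number of genes with an unadjusted p under 0.05 in WT mice in each bin, by direction, without and with offsets. The WT medians fall from 0.12 to -0.12 across the bins, and with offsets they lie near 0.

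The leading protein-coding genes whose groups did not overlap were Zfp971, mt-Nd3, Slc22a22, Olfm3 and Wwp1 on the higher side, and Fga, Arsg, R3hdm4, Rhpn1 and Ppp1r35 on the lower side. Such separation of the 5 MitoGamide from the 5 ethanol libraries was found for 394 of all genes tested (2.27%), 197 in each direction (1.13%). Zfp971, a zinc finger gene (chr2:178023284-178034022), was measured at 8.64, 10.6, 8.15, 10.4 and 11.2 CPM in the ethanol libraries and at 15.5, 13.4, 14.6, 14.00 and 13.9 CPM in the MitoGamide libraries. Its log2 fold change was 0.54 ± 0.10 (edgeR adjusted p = 0.307, DESeq2 adjusted p = 0.00371). Slc22a22, a kidney transporter of prostaglandins (chr15:57243767-57477625), was measured at 89.3, 81.5, 79.9, 83.6 and 68.5 CPM with ethanol and at 102, 102, 112, 99.9 and 102 CPM with MitoGamide. Every MitoGamide library lay above every ethanol library for both genes, with a log2 fold change of 0.36 ± 0.07 for Slc22a22. Olfm3, an olfactomedin, had 14.8 ± 1.12 CPM (SD, n = 5) with ethanol and 19.3 ± 1.05 CPM with MitoGamide. Wwp1, a ubiquitin ligase, had 237 ± 14.95 and 292 ± 15.6 CPM, a log2 fold change of 0.30 ± 0.06. All of these higher genes are poor in GC, from 33.05% in mt-Nd3 to 40.4% in Zfp971, and with offsets their log2 fold changes were 0.44 (Zfp971), 0.38 (mt-Nd3), 0.25 (Slc22a22), 0.21 (Olfm3) and 0.17 (Wwp1).

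Fga, which encodes the alpha chain of fibrinogen (chr3:83026076-83033627), had the smallest p of the lower protein-coding genes. It was measured at 18.6, 17.5, 16.3, 18.6 and 16.3 CPM with ethanol and at 9.47, 8.66, 9.87, 10.1 and 15.3 CPM with MitoGamide. MitoGamide replicate 5 stood apart at the top of its group and just under the lowest ethanol library. The log2 fold change was -0.69 ± 0.13 (edgeR adjusted p = 0.307, DESeq2 adjusted p = 0.00374), and without MitoGamide replicate 5 it was -0.87 with an edgeR adjusted p of 0.00293. Fga is of middle GC content, and with offsets its log2 fold change was -0.66. Fgg, the gamma chain of the same protein, had 5.26 to 7.79 CPM with ethanol and 4.24 to 6.43 CPM with MitoGamide, a log2 fold change of -0.37 ± 0.14. In Akita mice the values had the other sign, 1.73 for Fga and 1.62 for Fgg, and the difference between genotypes had an unadjusted p of 0.0488 for Fga by edgeR and was not called. Arsg, a lysosomal sulfatase, had 38.4 ± 2.99 CPM (SD, n = 5) with ethanol and 29.7 ± 2.38 CPM with MitoGamide. Of the remaining lower genes, R3hdm4 had a log2 fold change of -0.31 ± 0.06, Rhpn1 of -0.46 ± 0.10, and Ppp1r35, which encodes a centriole protein, of -0.60 ± 0.13. These 3 shrank most with offsets among the lower genes, to -0.18 (R3hdm4), -0.30 (Rhpn1) and -0.40 (Ppp1r35), while Arsg was at -0.32.

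**Figure D2:**
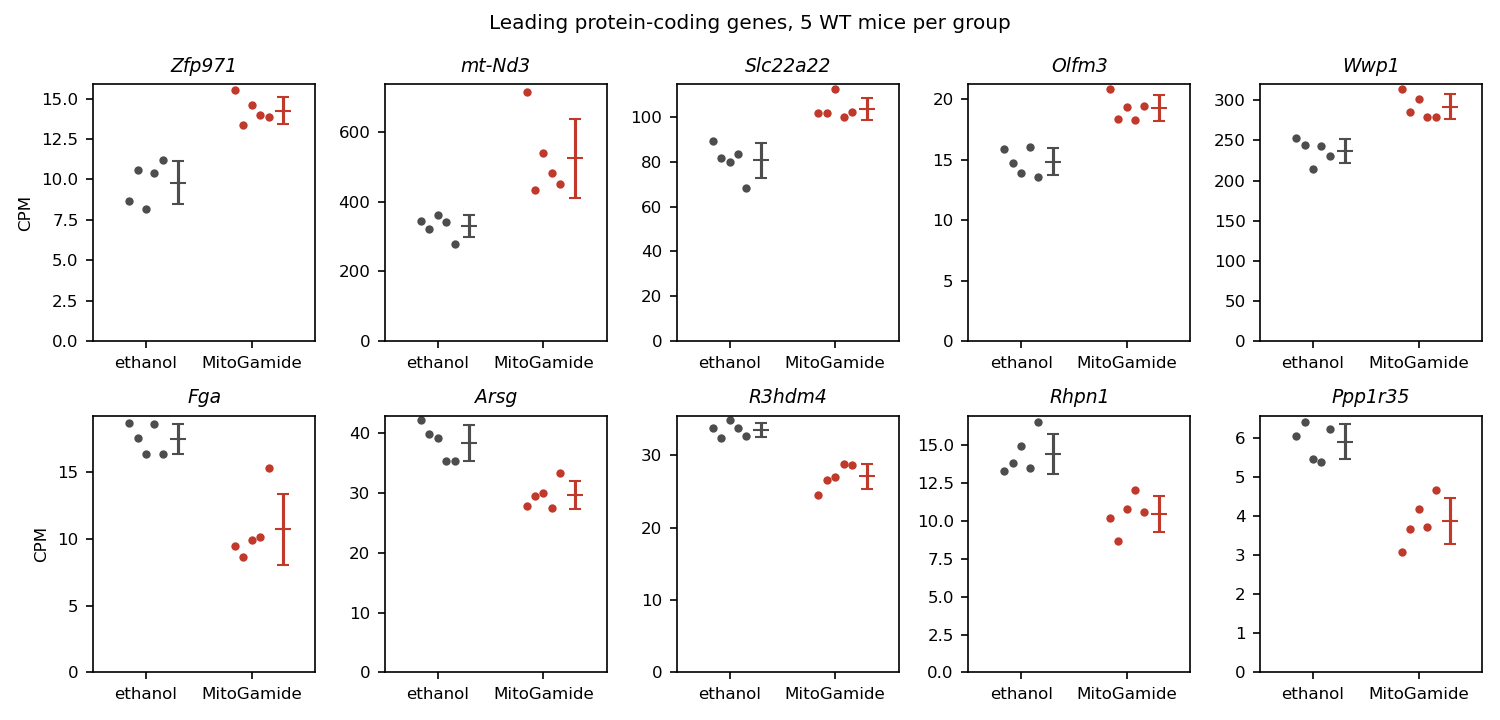
Levels of the 10 leading protein-coding genes in each library. Points are single mice in CPM, bars show the mean and SD of 5 mice per group, and each panel starts at 0. In every panel the 5 MitoGamide libraries lie on one side of the 5 ethanol libraries, with MitoGamide replicate 5 closest to the ethanol group for Fga.

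Transcripts of the mitochondrial genome, which encode respiratory chain subunits and the mitochondrial ribosomal RNAs, had the highest median among the pathway lists examined in WT mice. Of 15 genes, 14 were higher with MitoGamide and 12 had an unadjusted p under 0.05, all in the higher direction, when compared to 5.39% of all genes in that direction. Their median log2 fold change was 0.46, and 0 were called by edgeR. In single libraries the median of the 15 genes, relative to the ethanol mean, lay at -0.24 to 0.24 with ethanol and at 0.27 to 1.02 with MitoGamide, with MitoGamide replicate 1 at the top. Without any one library the median stayed between 0.33 and 0.55. With GC and length offsets the median was 0.31, and 4 of the 15 had an unadjusted p under 0.05, all higher, against 2.96% of all genes.

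The first 300 of the 348 bases of the transcript of mt-Nd3, a subunit of complex I (GENCODE M21), are shown because it led this group and because nearly all of it also exists as a nuclear copy. Capitals mark the 297 of these bases that lie in 31-base words shared with another gene. Reads were assigned by such words, so reads of the gene and of its copy could be split between them.

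mt-Nd3: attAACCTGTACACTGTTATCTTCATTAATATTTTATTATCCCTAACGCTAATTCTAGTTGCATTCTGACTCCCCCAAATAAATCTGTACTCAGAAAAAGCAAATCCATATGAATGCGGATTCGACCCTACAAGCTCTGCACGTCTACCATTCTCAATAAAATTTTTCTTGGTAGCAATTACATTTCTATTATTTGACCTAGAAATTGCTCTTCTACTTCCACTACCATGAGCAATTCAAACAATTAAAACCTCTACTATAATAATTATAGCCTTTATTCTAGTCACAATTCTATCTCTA

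The mt-Nd3 level was 344, 322, 363, 342 and 278 CPM in the ethanol libraries and 715, 435, 539, 482 and 452 CPM in the MitoGamide libraries. The groups did not overlap, the log2 fold change was 0.67 ± 0.13, and DESeq2 gave an adjusted p of 0.00088. With GC and length offsets the log2 fold change was 0.38 in edgeR, and DESeq2 did not call mt-Nd3. The words of mt-Nd3 were shared by 98.1%, all with Gm28438, a pseudogene in a block of mitochondrial sequence on chromosome 1. The summed level of the pair was 278 to 364 CPM with ethanol and 435 to 836 CPM with MitoGamide, so it did not overlap either.

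mt-Co2, a subunit of complex IV, was the one mitochondrial gene with a lower value, at a log2 fold change of -0.47 ± 0.33. All of its words are shared with the pseudogene Gm28661, which took 39.02% of the counts of the pair with ethanol and 64.7% with MitoGamide. Summed over the pair, the level was 5628 to 7338 CPM with ethanol and 7020.3 to 10651 CPM with MitoGamide, and the ratio of the means was 1.25. Thus mt-Co2 was lower alone, while the summed level of the pair was higher on average, although 2 MitoGamide libraries lay within the ethanol range of the sum. mt-Co3 had a log2 fold change of 0.04 ± 0.19 alone and a ratio of 1.25 for the mean sums with Gm28437, and 1 MitoGamide library lay within the ethanol range of this sum. For mt-Co1 the sum with Gm29216 was 14392 to 16910.2 CPM with ethanol and 17010.1 to 24934 CPM with MitoGamide, without overlap. Gm29216 was itself among the genes called by DESeq2 (log2 fold change 0.67 ± 0.13, adjusted p = 0.00088), and it shares 97.2% of its words. The pseudogenes were chosen after their values were seen.

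Of the mitochondrial genes, 6 share under 10% of their words with any other gene, and all 6 were higher, with log2 fold changes from 0.35 to 1.00 and unadjusted p-values under 0.05. Among them mt-Nd1, of complex I, shares none and had 0.35 ± 0.14. mt-Nd6, the complex I subunit encoded on the opposite strand, was measured at 395 to 633 CPM with ethanol and 631 to 1297 CPM with MitoGamide, a log2 fold change of 0.75 ± 0.20. The groups for mt-Nd6 overlapped by 1 MitoGamide library, replicate 2. mt-Atp8, a subunit of ATP synthase, had the largest log2 fold change of the group, 1.00 ± 0.33, at 101 to 259.6 and 158 to 636 CPM. mt-Nd5, which shares 16.8% of its words and is not one of the 6, had a log2 fold change of 0.51 ± 0.16, with MitoGamide replicate 1 at the top. MitoGamide replicate 1 was also the highest library for all of mt-Nd3, mt-Nd6 and mt-Atp8. With offsets mt-Atp8, mt-Nd6 and mt-Nd5 were at 0.66, 0.48 and 0.33. The ribosomal RNAs took 15.1% to 17.7% of the counts with ethanol and 18.3% to 22.7% with MitoGamide, without overlap. DESeq2 called mt-Rnr2 (adjusted p = 0.02), but not with the offsets. mt-Rnr1 alone, which is 1 of the 6 genes above, did overlap. It was at 23372 to 40540.2 CPM with ethanol, at 62567, 53706 and 46299 CPM in MitoGamide replicates 2, 3 and 4, which carried more nuclear ribosomal RNA, and at 35730.4 and 32643 CPM in MitoGamide replicates 1 and 5, within the ethanol range. The part of the remaining nuclear ribosomal RNA in the mt-Rnr1 value was not tested. Mitochondrial mRNA took 4.84% to 5.54% and 5.07% to 8.27% of the counts, so here the groups overlapped. Libraries were depleted of ribosomal RNA before sequencing, and the part of that step in these shares was not tested.

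**Figure D3:**
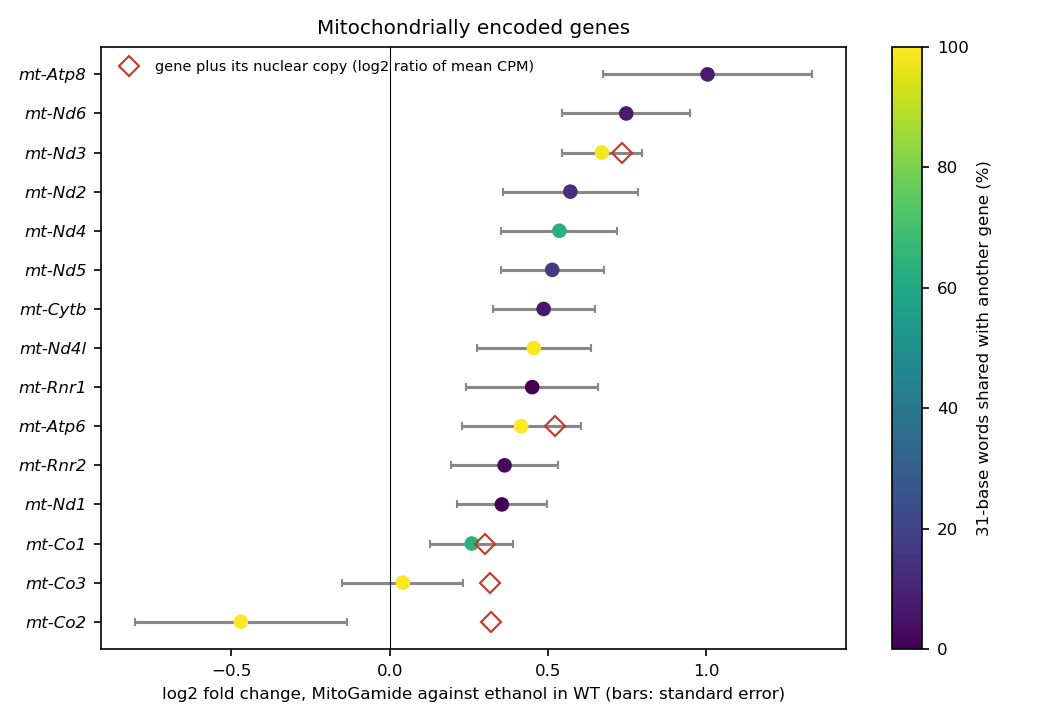
Log2 fold change of each mitochondrially encoded gene with its standard error, coloured by the percentage of its 31-base words shared with another gene. Open diamonds give the log2 ratio of mean CPM when a gene is summed with its nuclear copy on chromosome 1. Filled points are above 0 for 14 of 15 genes, and the diamond of mt-Co2 lies above 0 while its own point lies at -0.47.

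Nuclear genes of the mitochondrion had list medians near or below 0. Of 76 nuclear respiratory chain subunits, 19 were higher and 57 lower, with a median log2 fold change of -0.08, and 4 higher and 10 lower genes had an unadjusted p under 0.05, when 5.39% of all genes were higher and 5.20% lower at this threshold. In single libraries the median of these subunits was -0.13 to 0.07 with ethanol, relative to the ethanol mean. MitoGamide replicate 1 stood apart at -0.24, and the other MitoGamide libraries, at -0.10 to 0.02, lay within the ethanol range. Ndufs7, of complex I, had 47.6 to 53.02 CPM with ethanol and 35.97 to 47.8 CPM with MitoGamide (log2 fold change -0.24 ± 0.07), and Cox8a, of complex IV, had -0.23 ± 0.08. Higher values were found for Cycs, which encodes cytochrome c (0.31 ± 0.11), and Cox7b, of complex IV (0.22 ± 0.08). With offsets the median of these subunits was -0.03 and Ndufs7 and Cox8a were at -0.08 and -0.10, Cycs and Cox7b at 0.22 and 0.14, and 3 genes in each direction had an unadjusted p under 0.05, when 2.96% of all genes were higher and 2.45% lower with offsets. The 25 genes of the TCA cycle had a median of -0.0091, and the 25 genes of mitochondrial biogenesis and dynamics had -0.04. In this second list 4 genes in each direction had an unadjusted p under 0.05, against 5.39% and 5.20% of all genes. Among the biogenesis and dynamics genes Fundc1 and Bnip3l, receptors that mark mitochondria for autophagy, were at 0.33 ± 0.08 and 0.20 ± 0.06. Esrra, a nuclear receptor that drives respiratory genes, was at -0.30 ± 0.09. The Esrra level was 67.1 to 74.9 CPM with ethanol and 45.1 to 66.2 CPM with MitoGamide, without overlap. Mief2, an adaptor for mitochondrial fission, had a log2 fold change of -0.38 ± 0.12. With offsets Fundc1 was at 0.19, Bnip3l at 0.12, Esrra at -0.26 and Mief2 at -0.24.

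The genes that clear dicarbonyls, the chemical target of MitoGamide, were mostly slightly lower. Of 20 genes listed 19 were measured, the exception being Ager, the receptor for glycated proteins, which lay under the count minimum. Of the 19, 15 were lower and 4 higher, with a median log2 fold change of -0.10, and 4 lower and 1 higher gene had an unadjusted p under 0.05, against 5.20% and 5.39% of all genes. In single libraries the median, relative to the ethanol mean, was -0.091 to 0.061 with ethanol. MitoGamide replicate 1 stood apart at -0.26, and the other MitoGamide libraries, at -0.087 to -0.013, lay within the ethanol range. Glo1, glyoxalase 1, which acts on the adduct of methylglyoxal and glutathione, was measured at 69.5, 70.6, 65.2, 65.2 and 63.7 CPM with ethanol and at 57.4, 68.5, 68.3, 61.8 and 63.3 CPM with MitoGamide. These groups overlapped, and the log2 fold change was -0.07 ± 0.06. Hagh, glyoxalase 2, which completes the reaction, had -0.15 ± 0.07, its relative Haghl had -0.25 ± 0.18, and Park7, a proposed deglycase, had -0.15 ± 0.09. Among the glyoxalase-like genes Glod4 had 0.11 ± 0.07 and Glod5 had 0.19 ± 0.08. Aldh3a2, a fatty aldehyde dehydrogenase, was the one member of the 19 without overlap, against 2.27% of all genes. It was at 207, 219, 256, 242 and 212 CPM with ethanol and 187, 198, 193, 179 and 205 CPM with MitoGamide. Its log2 fold change was -0.24 ± 0.07, with an edgeR adjusted p of 0.315.

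The other aldehyde dehydrogenases were closer to 0, with Aldh9a1 at -0.08 ± 0.07, Aldh2 at -0.06 ± 0.07 and Aldh1a1 at -0.09 ± 0.27. Of the aldo-keto reductases, Akr7a5 had -0.27 ± 0.10 and Akr1a1 -0.17 ± 0.07, the latter at 1122 to 1316 and 1019 to 1181 CPM. Akr1b3, the aldose reductase of the mouse, had -0.13 ± 0.13, and -0.19 to -0.01 with each library left out in turn. Akr1b10 and Akr1b8 had 0.03 ± 0.08 and 0.16 ± 0.31. Akr1b8 had the widest error of the list, at 0.68 to 1.38 CPM with ethanol and 0.82 to 2.001 CPM with MitoGamide, where MitoGamide replicate 4 stood apart at the top. Fn3k, which removes sugar from glycated proteins, had -0.26 ± 0.08, with 13.1 to 14.99 CPM with ethanol and 10.6 to 13.5 CPM with MitoGamide. Its relative Fn3krp had -0.05 ± 0.08, the xylulose reductase Dcxr -0.10 ± 0.09 and Tpi1, the triose phosphate isomerase whose substrates give rise to methylglyoxal, -0.11 ± 0.08. With offsets the median of the list was -0.06, and Akr7a5 moved to -0.07 while Aldh3a2 and Fn3k were at -0.23 and -0.26. Dcxr and Aldh2 changed sign with offsets, to 0.06 and 0.04. Hagh, Haghl and Park7 were at -0.06, -0.11 and -0.08 with offsets, Tpi1 and Aldh9a1 at -0.03 each, and Glo1 at -0.11. For the difference between genotypes, 1 of the 19 genes had an unadjusted p under 0.05, against 8.32% of all genes. It was Hagh (0.00843 by edgeR, not called), which had 0.19 in Akita mice.

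Fatty acid oxidation genes and targets of PPAR-alpha, the nuclear receptor that turns on fat burning in fasting, had lower values in WT mice with MitoGamide. All 32 measured genes had a negative log2 fold change, with a median of -0.20, when 50.1% of all genes tested were above 0. An unadjusted p under 0.05 was found for 9, against 5.20% of all genes in this direction. With offsets 32 were still negative, with a median of -0.16 and 4 at an unadjusted p under 0.05 (2.45% of all genes), and without any one library the median was -0.28 to -0.16, with 0 to 3 genes above 0. In single libraries the median over the list was -0.22 to 0.29 with ethanol and -0.30 to -0.00 with MitoGamide, relative to the ethanol mean, so the groups overlapped. Acaa1b, a peroxisomal thiolase, was measured at 146, 185, 240.4, 203 and 187 CPM with ethanol and at 115, 168, 118, 128 and 178 CPM with MitoGamide, a log2 fold change of -0.44 ± 0.14. It shares 50.05% of its words with other genes, chiefly Acaa1a, which had -0.29 ± 0.11, and with offsets they were at -0.29 and -0.19. Ehhadh, the bifunctional enzyme of the peroxisome, had 499.8 to 744 CPM with ethanol and 361 to 543 CPM with MitoGamide, a log2 fold change of -0.38 ± 0.13. Acads, the short-chain acyl-CoA dehydrogenase of mitochondria, had -0.27 ± 0.09 and -0.11 with offsets.

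Pdk4, the fasting-induced kinase that shuts pyruvate dehydrogenase, had 13.7 to 43.1 CPM with ethanol and 11.1 to 26.4 CPM with MitoGamide, a log2 fold change of -0.66 ± 0.30. Pcx, pyruvate carboxylase, had -0.22 ± 0.08, and -0.09 with offsets. In Akita mice the median of the fat oxidation list was 0.17, and when the MitoGamide effects of the genotypes were compared, their difference had an unadjusted p under 0.05 for 6 of the 32 genes (8.32% of all genes), with 0 called. The mice had free access to food, and whether it was withdrawn before harvest is not given in the sources used here.

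The circadian clock is a loop in which ARNTL and its partners CLOCK or NPAS2 switch on the Per genes and the output factors Dbp, Tef and Hlf, while NFIL3 opposes these at the same D-box sites. In WT mice 0 of 19 clock genes were called by edgeR or DESeq2, and 15 were higher and 4 lower with MitoGamide, with a median of 0.19. Of the 19, 7 were higher at an unadjusted p under 0.05, against 5.39% of all genes, and 2, Nfil3 and Npas2, were lower, against 5.20%. The same counts were found with GC and length offsets, against 2.96% and 2.45% of all genes, with a median of 0.24. Per2 was measured at 11.96, 20.97, 21.9, 21.5 and 14.01 CPM with ethanol and at 29.8, 27.8, 30.4, 28.9 and 20.5 CPM with MitoGamide. Only MitoGamide replicate 5 lay within the ethanol range, and the log2 fold change was 0.60 ± 0.17. For Hlf as well, only MitoGamide replicate 5 lay within the ethanol range. It was at 77.6, 59.03, 75.4, 68.2 and 59.6 CPM with ethanol and 98.2, 95.1, 96.2, 91.2 and 64.7 CPM with MitoGamide (0.39 ± 0.12). Per3 was at 8.58, 16.9, 19.7, 23.3 and 15.9 CPM with ethanol and 38.1, 34.5, 30.2, 21.1 and 15.5 CPM with MitoGamide (0.71 ± 0.26), where MitoGamide replicates 4 and 5 lay within the ethanol range.

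Nfil3 had a negative value, at 12.9, 7.51, 9.29, 13.2 and 4.24 CPM with ethanol and 2.54, 4.52, 2.29, 6.72 and 5.71 CPM with MitoGamide, a log2 fold change of -1.09 ± 0.33. Dbp, Tef, Npas2 and Arntl were chosen after their values were seen. Dbp was at 1.82, 11.8, 16.3, 12.3 and 8.68 CPM with ethanol and 28.1, 28.5, 30.1, 13.4 and 9.26 CPM with MitoGamide (1.07 ± 0.42), and Tef had 0.36 ± 0.15. Arntl was at 25.99, 14.4, 10.5, 11.8 and 16.7 CPM with ethanol and 6.04, 7.91, 6.39, 14.2 and 15.7 CPM with MitoGamide (-0.63 ± 0.30), and Npas2 had -0.91 ± 0.35. Without ethanol replicate 1 these were -0.39 for Arntl and -0.50 for Npas2. Ethanol replicate 1 held the lowest Dbp and the highest Arntl and Npas2 of all 10 mice, and MitoGamide replicate 3 held the highest Dbp and the lowest Npas2 and Nfil3. Thus mice of the same group also differed among themselves in these genes. The animals were kept in a light/dark cycle, but the hour at which each was killed is not given in the sources used here, and its part in these values was not tested.

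The promoters of the 3 clock genes that held a D-box or a RORE are shown because the described genes meet at these motifs, from 250 bases before the start to 50 after it (RefSeq, GRCm38.p6). Of the 19 genes, 16 had a promoter in the table. Motifs were searched on both strands as CACGTG (E-box), TTATGTAA or TTACGTAA (D-box) and TAGGTCA or TGGGTCA (core of the RORE, bound by ROR and NR1D receptors), and capitals mark each match.

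Per3, chr4:151044616-151044915, minus strand: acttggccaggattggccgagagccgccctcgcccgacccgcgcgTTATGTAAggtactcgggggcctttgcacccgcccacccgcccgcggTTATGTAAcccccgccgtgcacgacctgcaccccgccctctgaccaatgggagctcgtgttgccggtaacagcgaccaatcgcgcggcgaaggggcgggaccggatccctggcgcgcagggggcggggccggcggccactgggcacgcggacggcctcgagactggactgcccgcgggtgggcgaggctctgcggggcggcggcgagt
Nfil3, chr13:52980990-52981289, minus strand: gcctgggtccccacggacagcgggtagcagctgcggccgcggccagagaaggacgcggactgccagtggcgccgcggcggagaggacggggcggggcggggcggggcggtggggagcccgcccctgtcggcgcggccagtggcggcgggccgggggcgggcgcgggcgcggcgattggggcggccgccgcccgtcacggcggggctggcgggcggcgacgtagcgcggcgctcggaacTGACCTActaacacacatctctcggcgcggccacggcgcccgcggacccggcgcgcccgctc
Arntl, chr7:113207261-113207560, plus strand: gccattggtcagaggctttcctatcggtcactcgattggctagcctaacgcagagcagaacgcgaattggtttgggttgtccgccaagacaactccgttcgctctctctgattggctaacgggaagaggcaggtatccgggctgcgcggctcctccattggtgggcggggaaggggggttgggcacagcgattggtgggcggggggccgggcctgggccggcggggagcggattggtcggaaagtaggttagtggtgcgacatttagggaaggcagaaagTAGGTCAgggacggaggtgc

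Per3 held 2 copies of TTATGTAA, and either form of the D-box was found in 1.06% of all 32851 promoters in the table. Nfil3 and the promoter of Arntl shown here, 1 of 2 in the table, each held 1 match to the RORE core, found in 6.45% of all promoters. An E-box was found in 6 of the 21 promoters of the clock genes, which belong to 5 genes, among them Tef, and in 7.15% of all promoters. A match describes the sequence and does not show that a factor was bound there.

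**Figure D4:**
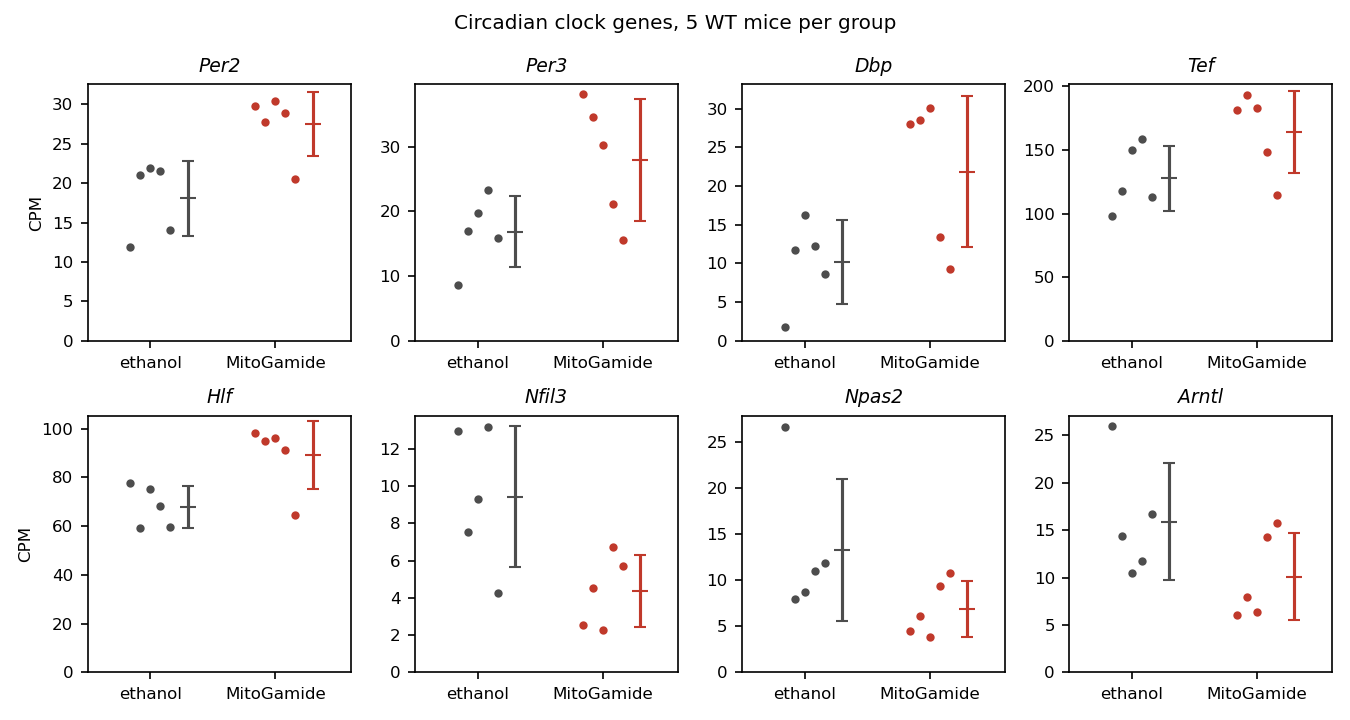
Levels of 8 clock genes in each WT mouse, in CPM, with the mean and SD of 5 mice per group; every panel starts at 0. Per2, Per3, Dbp, Tef and Hlf have higher means with MitoGamide and Nfil3, Npas2 and Arntl lower means, and the groups overlap in all 8 panels.

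In Akita mice 12 of the 19 clock genes were higher with MitoGamide, with a median of 0.09. For the difference of the effect between genotypes, 8 of 19 clock genes had an unadjusted p under 0.05, when compared to 8.32% of all 17256 genes tested, and 0 were called. In Akita mice Per3 had a log2 fold change of -0.50, Tef of -0.24, Dbp of -0.47 and Nfil3 of 0.75. The difference was 1.22 ± 0.36 for Per3 (unadjusted p = 0.00283), 0.61 ± 0.19 for Tef (0.00372), 1.54 ± 0.56 for Dbp (0.0124) and -1.84 ± 0.67 for Nfil3 (0.0120) by edgeR.

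Immediate early genes, glucocorticoid targets and genes of inflammation had negative medians in WT mice, with 0 genes called by edgeR. In single libraries, relative to the ethanol mean, the median of immediate early genes was -0.26 to 0.43 with ethanol and -0.56 to -0.13 with MitoGamide. That of glucocorticoid targets was -0.40 to 0.39 with ethanol and -0.22 to 0.02 with MitoGamide. Thus the groups overlapped in both lists, and for glucocorticoid targets every MitoGamide library lay within the ethanol range. Of 19 immediate early genes, which respond within minutes to stimuli, 1 was higher and 18 were lower, with a median of -0.30, and 3 had an unadjusted p under 0.05, all lower, against 5.20% of all genes. Jun, a subunit of AP-1, was at 17.6 to 27.2 CPM with ethanol and 14.9 to 20.6 CPM with MitoGamide (-0.37 ± 0.12), and its relatives Jund and Junb had -0.32 ± 0.12 and -0.32 ± 0.14. These genes are rich in GC, and with offsets Jun, Jund and Junb were at -0.26, -0.07 and -0.12 and the median was -0.20, with 1 lower gene at an unadjusted p under 0.05 (2.45% of all genes). Of 13 glucocorticoid targets 10 were lower, 3 of them at an unadjusted p under 0.05, against 5.20% of all genes. The smallest p-values were those of Cdkn1a, the cell cycle inhibitor (-0.73 ± 0.24), and Ddit4, an inhibitor of mTORC1 (-0.65 ± 0.25). Cdkn1a was at 5.52, 5.96, 9.21, 5.75 and 4.54 CPM with ethanol and 3.23, 3.20, 2.92, 2.93 and 6.10 CPM with MitoGamide, where only MitoGamide replicate 5 lay within the ethanol range. In Akita mice the medians of both lists had the other sign, 0.25 and 0.47, and the difference between genotypes had an unadjusted p of 0.00924 for Jun and 0.0113 for Cdkn1a by edgeR, with 0 called. Of 26 genes of inflammation and complement 21 were lower (15 with offsets), among them Nfkb2, a subunit of NF-kB, at 10.2 to 11.7 and 8.56 to 9.65 CPM without overlap (-0.29 ± 0.08, and -0.14 with offsets). An unadjusted p under 0.05 was found for 3 of the 26, all lower, against 5.20% of all genes. In the MitoGamide libraries the median of this list was -0.37, -0.24, -0.16, -0.17 and 0.12 relative to the ethanol mean, and that of 10 macrophage markers was -0.42, -0.23, -0.14, -0.36 and 0.48. The ethanol libraries lay at -0.10 to 0.24 for the inflammation list and at -0.21 to 0.34 for the macrophage markers. C1qa and C1qb, of complement, stand in both lists. All 10 macrophage markers were measured. Their summed level, without the TMM factor, was 65.1 to 95.9 CPM with ethanol and 56.8 to 103.7 CPM with MitoGamide. The part of these markers in the values of the inflammation list was not tested. Socs2, an inhibitor of growth hormone signalling that was chosen after its values were seen, had -0.77 ± 0.20 and was called by DESeq2 (adjusted p = 0.0349). It was at -0.82 with offsets, where DESeq2 did not call it.

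Of 31 antioxidant genes and targets of NRF2, 12 were higher and 19 lower, with a median of -0.04. At an unadjusted p under 0.05 there were 5 lower genes, against 5.20% of all genes, and with offsets 1 higher and 2 lower, against 2.96% and 2.45%. Txn1, thioredoxin, was measured at 121, 118, 125, 119.7 and 118 CPM with ethanol and at 98.2, 109.6, 113, 102 and 99.9 CPM with MitoGamide. The groups did not overlap, and the log2 fold change was -0.21 ± 0.05 and -0.21 with offsets. Gpx4, which reduces lipid peroxides, had -0.20 ± 0.07 and -0.04 with offsets. Ftl1, the ferritin light chain, chosen after its values were seen, was at 1169 to 1444 CPM with ethanol and 809 to 1113 CPM with MitoGamide without overlap (-0.39 ± 0.09, and -0.25 with offsets), but shares 64.2% of its words with other genes.

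Among transport genes of the tubule, both directions were found. Of 31 organic ion and drug transporters, 15 were higher and 16 lower. Beside Slc22a22, Abcc2, an apical efflux pump, had 0.16 ± 0.07, while Slc22a12, the urate transporter URAT1, had -0.23 ± 0.08, and -0.09 with offsets. Slc34a3, a sodium phosphate cotransporter of the brush border, was at 35.3, 39.4, 39.4, 43.1 and 36.5 CPM with ethanol and 23.7, 28.4, 33.01, 29.8 and 32.6 CPM with MitoGamide, without overlap. Its log2 fold change was -0.39 ± 0.09 (DESeq2 adjusted p = 0.0311) and -0.27 with offsets, where DESeq2 did not call it. Amn, which anchors cubilin for protein uptake, had -0.38 ± 0.11 and -0.18 with offsets, and Cyp24a1, which inactivates vitamin D, had 0.76 ± 0.29 at 22.3 to 81.8 and 45.1 to 102 CPM. Of 41 genes of xenobiotic metabolism, 6 higher and 2 lower genes had an unadjusted p under 0.05, against 5.39% and 5.20% of all genes, and 2 higher and 0 lower genes with offsets, against 2.96% and 2.45%. Ugt1a2, a glucuronosyltransferase, was at 5.13, 4.90, 4.03, 4.64 and 5.08 CPM with ethanol and 9.88, 7.72, 6.18, 7.43 and 6.24 CPM with MitoGamide, without overlap (0.65 ± 0.14, and 0.64 with offsets). Its exons are partly common to the Ugt1a locus, and 65.1% of its words were shared with other genes. Sult1d1, a sulfotransferase, had 0.23 ± 0.08 and 0.01 with offsets. Aqp2, the water channel of principal cells, was at 38.7 to 59.4 and 21.3 to 42.6 CPM (-0.49 ± 0.17), and Hsd11b2, which protects those cells from corticosterone, had -0.21 ± 0.09. With offsets Aqp2 was at -0.30 and Hsd11b2 at -0.08. All 7 principal cell markers were lower without offsets and 5 of 7 with them. Their summed level, without the TMM factor, was 199.7 to 249.7 CPM with ethanol and 167 to 211 CPM with MitoGamide.

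Genes of biosynthesis and protein degradation had small values. Of 29 genes of cholesterol and fatty acid synthesis 24 were higher, with a median of 0.11. The smallest p-values were those of Stard4, a cholesterol carrier (0.27 ± 0.08), and Hmgcs1, of the mevalonate pathway (0.23 ± 0.07). With offsets 27 of the 29 were higher, with a median of 0.11. The median of this list in single libraries was -0.25 to 0.23 with ethanol and -0.10 to 0.29 with MitoGamide, relative to the ethanol mean, so the groups overlapped. With 1 library left out, 17 to 27 of the genes were higher. Of 31 proteasome subunits 24 were lower and 9 of these had an unadjusted p under 0.05, against 5.20% of all genes, with a median of -0.08. In single libraries this median was -0.07 to 0.07 with ethanol, relative to the ethanol mean. It was -0.30 and -0.12 in MitoGamide replicates 1 and 2, and -0.03 to -0.01 in MitoGamide replicates 3, 4 and 5, within the ethanol range. Without any one library, 3 to 11 of the subunits were higher. Psmb6 and Psmb5, catalytic subunits, had -0.23 ± 0.07 and -0.33 ± 0.10, and -0.18 and -0.22 with offsets. With offsets 4 of the 31 subunits had an unadjusted p under 0.05, all lower, against 2.45% of all genes. Cytosolic ribosomal proteins had a median of 0.0064 over 83 genes, with Rps24 at 0.29 ± 0.07 (DESeq2 adjusted p = 0.0362) and Rpl21 at 0.40 ± 0.11. Rps24 was at 0.23 with offsets, where DESeq2 did not call it. Without offsets 44 of the 83 were higher and 39 lower. Of these, 5 higher and 2 lower genes had an unadjusted p under 0.05, against 5.39% and 5.20% of all genes. With offsets 57 of the 83 were higher, 16 of them with an unadjusted p under 0.05, against 2.96% of all genes, and the median was 0.05. Olfactory and vomeronasal receptor genes, which are low in the kidney, had medians of 0.13 over 161 and 0.16 over 110 genes. With offsets these were 0.00 and -0.02, and in Akita mice without offsets -0.36 and -0.28.

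**Figure D5:**
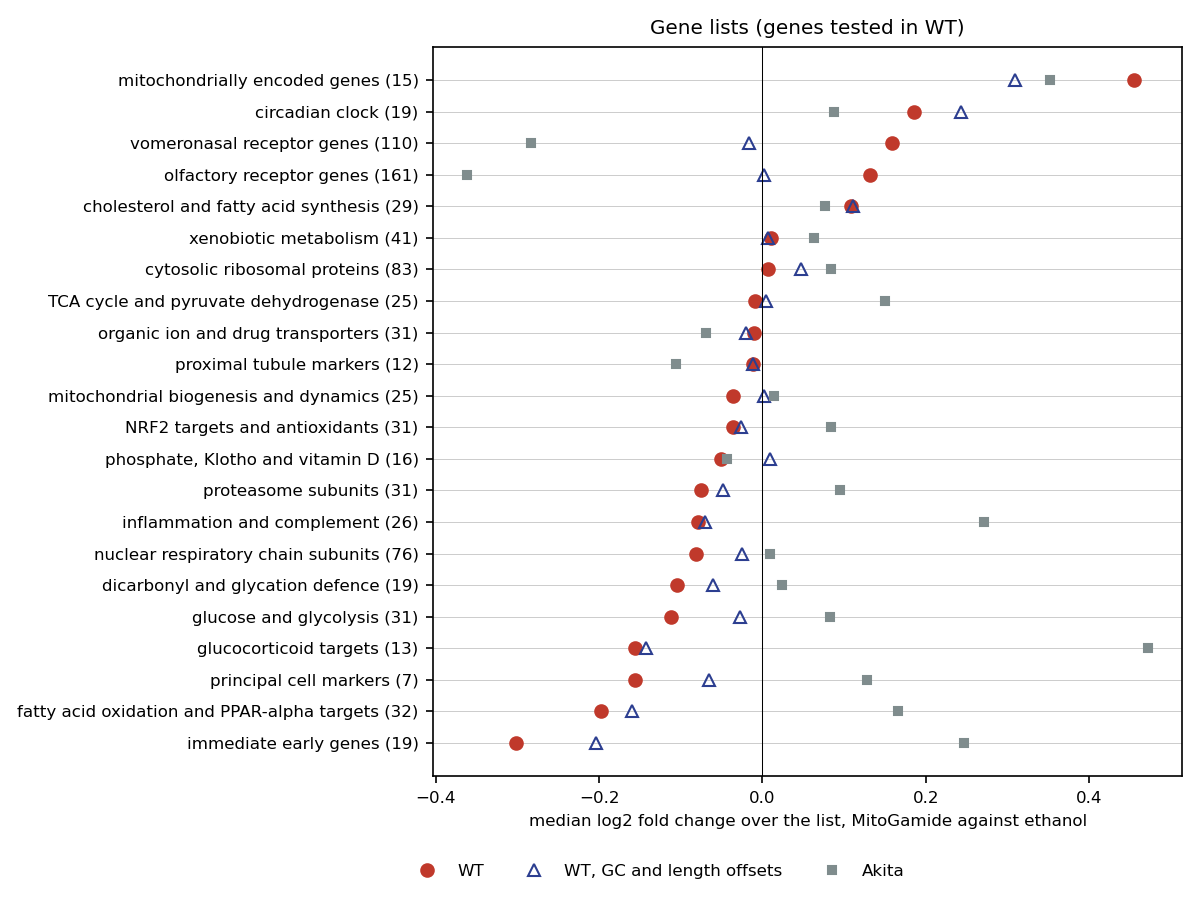
Median log2 fold change of 22 gene lists with MitoGamide in WT mice, in WT mice with GC and length offsets, and in Akita mice; the number of genes tested in WT mice is in brackets. Mitochondrially encoded genes have the highest WT median (0.46) and immediate early genes the lowest (-0.30), and fatty acid oxidation genes are below 0 in WT mice (-0.20) and above 0 in Akita mice (0.17).

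Zfp971 belongs to a cluster of zinc finger genes on chromosome 2 that was examined after its values were seen. Of 35 measured genes between positions 175010241 and 178078476 (GRCm38), 33 were higher and 14 of these had an unadjusted p under 0.05, against 5.39% of all genes, with a median log2 fold change of 0.33. In 7 genes the groups did not overlap, against 2.27% of all genes, and DESeq2 called 5 of the cluster, all higher, against 0.282% of all genes. These were Zfp971, Zfp966 (0.49 ± 0.11), Gm14325 (0.54 ± 0.12), Gm14295 (0.43 ± 0.10) and Gm14399 (0.50 ± 0.12). Of these, only Zfp971 was called by DESeq2 with GC and length offsets. In edgeR with offsets, Zfp966 was at 0.34, Gm14325 at 0.42, Gm14295 at 0.32 and Gm14399 at 0.40. Zfp966 was at 15.5, 20.1, 14.1, 14.4 and 20.96 CPM with ethanol and 25.5, 25.2, 22.7, 23.2 and 23.1 CPM with MitoGamide, so that every MitoGamide library was above every ethanol library. The median over the cluster was -0.13 to 0.21 in single ethanol libraries and 0.24 to 0.48 in single MitoGamide libraries. With GC and length offsets 31 were higher, with a median of 0.21, and in Akita mice the median was 0.28, with 2 genes called higher by edgeR, against 0.833% of all genes tested in Akita mice. The direction was not particular to the cluster. Of 356 measured genes named Zfp plus digits, which include Zfp971 and Zfp966, 249 were higher and 107 lower, with a median of 0.09. Among these, 51 higher and 7 lower genes had an unadjusted p under 0.05, against 5.39% and 5.20% of all genes.

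The genes of this cluster are near copies of each other, with a median of 91.0% of 31-base words shared with another gene. A stretch of the Zfp971 coding sequence, bases 338 to 428, is shown because its 31 bases in capitals stand in the transcripts of 32 of the 35 genes, and in 61 genes in all.

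Zfp971: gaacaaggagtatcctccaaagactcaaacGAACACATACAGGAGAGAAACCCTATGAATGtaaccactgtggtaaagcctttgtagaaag

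Reads that hold only shared words cannot be assigned to one gene, so the values of single members of the cluster may not be independent of each other. The share of such reads was not measured.

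Histone genes, also examined after their values were seen, went the other way, with 40 of 49 lower, a median of -0.23 and 9 lower genes at an unadjusted p under 0.05, against 5.20% of all genes. Without any one library the median was -0.35 to -0.17. H2ac18, a replication-dependent histone rich in GC, was at 9.29, 7.29, 9.86, 6.19 and 11.9 CPM with ethanol and 2.68, 4.05, 4.24, 3.29 and 6.38 CPM with MitoGamide (-1.09 ± 0.23, DESeq2 adjusted p = 0.00374). H2ac18 was at -0.91 with offsets, where DESeq2 did not call it. All of its words are shared with other genes. H1f2, a linker histone, had -0.34 ± 0.11. With offsets the median of the histone genes was -0.12, with 7 lower genes at an unadjusted p under 0.05 (2.45% of all genes), and in Akita mice without offsets it was 0.06.

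Nuclear ribosomal RNA that remained after depletion was abundant in 3 MitoGamide mice. CT010467.1, annotated as ribosomal RNA, took 0.0478% to 0.242% of the counts in the ethanol libraries, 2.73%, 1.18% and 0.899% in MitoGamide replicates 2, 3 and 4, and 0.0747% and 0.0683% in MitoGamide replicates 1 and 5. Lars2, the mitochondrial leucyl-tRNA synthetase, followed it with 124, 97.5, 109, 261 and 156 CPM with ethanol and 128, 4708, 1495, 739.7 and 133 CPM with MitoGamide, and AA474408 did so as well (3.85 ± 1.02). CT010467.1, Lars2 and AA474408 were called by DESeq2, yet MitoGamide replicates 1 and 5 lay within the ethanol range for all 3. None of the 3 was called by DESeq2 with the offsets. CT010467.2, which has no match in the annotation used here, was lower in every MitoGamide library, at 2327, 1944, 2522, 2493 and 2267 CPM with ethanol and 1188, 1808, 1640.1, 1537 and 1681 CPM with MitoGamide (-0.56 ± 0.12). It has no GC content or length here, so the offsets did not act on it, and its call by DESeq2 in that fit is no check of its value. MitoGamide replicates 1 and 5, which are low in CT010467.1, were at the top and at the bottom of the MitoGamide range for the median of the mitochondrial genes, while for mt-Rnr1 both lay below MitoGamide replicates 2, 3 and 4. These genes were chosen after their values were seen.

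More genes were called for MitoGamide in Akita mice than in WT mice, but the difference of the effect passed the test for 0 genes. In Akita mice edgeR called 214 of 17051 genes (1.26%). For the difference of the effect between WT and Akita mice, 0 of 17256 genes were called by edgeR and 0 by DESeq2, and 1435 had an unadjusted p under 0.05 (8.32%). The comparisons in WT and Akita mice share no libraries. Across 16723 genes, which are not independent replicates and share the gradient with GC content, the log2 fold changes of both genotypes had a Spearman correlation of 0.254. Of the leading WT genes, mt-Nd3 had a log2 fold change of 0.53 in Akita mice, Wwp1 of 0.26, Zfp971 of 0.23, Slc22a22 of 0.21 and Olfm3 of 0.17. Among the lower genes Arsg had -0.14, R3hdm4 -0.16, Rhpn1 -0.01, Ppp1r35 -0.30 and Fga 1.73 in Akita mice. MitoQ, a mitochondria-targeted antioxidant, was given in water to another 5 WT mice, at a dose that the sources used here do not give, so the compounds cannot be matched by dose. For the difference of the MitoGamide and the MitoQ effect in WT mice, 0 of 17645 genes were called by edgeR and 0 by DESeq2, and 208 had an unadjusted p under 0.05 (1.18%). The biological coefficient of variation was 14.1% in the WT MitoGamide comparison and 31.4% in that of MitoQ against water, so the latter libraries varied more among themselves.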

How the data were processed

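The deposited table holds estimated counts per gene. The authors depleted ribosomal RNA, sequenced single reads from directional libraries, trimmed them with Skewer, mapped them to GENCODE mouse v25 transcripts with kallisto 0.46.1 and summed the estimates per gene in R 4.0.2 (GRCm38 per the submitters' notes); the values are rounded to whole numbers. Total counts were 11690029 to 24321424 per library here. The standard error of a log2 fold change, which holds counting error and the spread between mice, was larger for genes under 100 counts (median 0.25, against 0.07 for those with at least 1000 counts). Each library is 1 mouse, grouped by its labels.

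Genes averaging 10 counts or more across these 10 libraries were tested with edgeR 4.0.16 (quasi-likelihood, TMM, Benjamini-Hochberg) in R 4.3.3, the pipeline having been tested on simulated data. The difference from Akita mice was an interaction term over 20 libraries, that from MitoQ a contrast over 20. Biotypes and coordinates came from GENCODE M21 (GRCm38), and sharing of sequence was counted as 31-base words of its transcripts on both strands. Promoters are from RefSeq (GRCm38.p6). Alternatives were DESeq2 1.42.0, other normalization and filters, 1 fit of 40 libraries, a replicate block and each library left out. GC and length offsets, per library, were added after seeing the data. Named were the leading 5 protein-coding genes per direction without overlap, every dicarbonyl gene, the 2 to 4 members with the smallest p of each list described, and genes said to be chosen after their values were seen. Gene lists and members were chosen with earlier results of these data known. The study's own comparison and enrichment results are not used here, and Akita mice given water or MitoQ entered only the fit of 40 libraries.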

Additional observations from a re-analysis of the deposited data

Results flagged for a closer look

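Of 196 groups of 5 values examined, 17 had 1 library whose gap to its nearest neighbour was over 0.71 of the whole range of its group (Dixon's ratio). Chance flags about 1 in 20 groups, and groups of genes in the same library are not independent. MitoGamide replicate 5 was such a library for Fga (ratio 0.776), Cdkn1a (0.903), Junb (0.711) and Nfkb2 (0.759), where it was the highest, and for Per2 (0.731) and Hlf (0.792), where it was the lowest of its group. In all 6 genes it was the MitoGamide library nearest to the ethanol mean. The same library had the highest medians of endothelial, fibroblast, macrophage and red cell markers, and their part in these values was not tested. MitoGamide replicate 1 was the highest for mt-Nd5 (0.753) and the lowest for Glod4 (0.749) and Psmb6 (0.782). MitoGamide replicate 4 was the highest for Akr1b8 (0.925), replicate 3 the highest for Slc22a22 (0.807) and replicate 2 the lowest for Cycs (0.734). In the ethanol group, replicate 1 was the highest for Akr1b3 (0.775) and Npas2 (0.787). Ethanol replicate 4 was the highest for the share of CT010467.1 (0.848), for its CPM (0.844) and for AA474408 (0.798), which were also high together in MitoGamide replicates 2, 3 and 4.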

How the results depend on the processing

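The count of 0 genes in WT mice was also found by edgeR with DESeq2's size factors (RLE), with no filter (35184 genes tested), with at least 10 counts in every library (14800 genes), with all 40 libraries in one fit, and with GC and length offsets. DESeq2 called 73 genes, and 7 with the offsets. Leaving out 1 library gave 0 to 4 calls: 1 lower gene without ethanol replicate 2 (Gm20458) and 4 lower genes without MitoGamide replicate 5 (Fga, Pgam1-ps2, Gm15432 and Gm44709). At an unadjusted p under 0.05 there were 567 genes with all 40 libraries, 941 with the offsets, and 1285 to 2251 with 1 library left out. Same-numbered libraries of the 2 groups had correlations of -0.10 to 0.12, and differently numbered ones of -0.36 to 0.40. These values cannot decide whether the replicate numbers pair the mice, and the main fit used no pairing. The replicate block also gave 0 calls. For the difference from Akita mice and that from MitoQ, 0 genes were called under every alternative run, and leaving out 1 library gave 0 for both. Their genes at an unadjusted p under 0.05 were 650 and 221 with all 40 libraries, and 2481 and 977 with no filter. A sign change was seen for 5 genes, none of them called: with the offsets Dcxr moved to 0.0627 (0.0625 with DESeq2) and Aldh2 to 0.0401 (0.0397 with DESeq2), without MitoGamide replicate 4 Akr1b8 moved to -0.17 and Akr1b10 to -0.0033, and without ethanol replicate 5 Aldh1a1 moved to 0.27. With each library left out in turn these 3 ranged from -0.17 to 0.33, from -0.0033 to 0.10 and from -0.25 to 0.27. Among the other named genes, mt-Nd5, Haghl and Acaa1a moved to 0.34, -0.11 and -0.19 without MitoGamide replicate 1, Junb to -0.20 without ethanol replicate 3, and Lars2 to 2.06 without MitoGamide replicate 2. Further moves were seen among dicarbonyl genes with each library left out in turn. Akr1b3 ranged from -0.19 to -0.01, Fn3krp from -0.08 to -0.01, Aldh2 from -0.09 to -0.02 and Glo1 from -0.09 to -0.03. Aldh9a1 ranged from -0.11 to -0.04, Tpi1 from -0.14 to -0.05 and Dcxr from -0.17 to -0.05. List medians over the same fits ranged from -0.40 to -0.15 for immediate early genes, -0.28 to -0.03 for glucocorticoid targets, -0.25 to -0.01 for inflammation, 0.12 to 0.33 for the clock, 0.03 to 0.17 for cholesterol synthesis, -0.10 to -0.03 for proteasome subunits, -0.11 to -0.04 for nuclear respiratory chain subunits, -0.14 to -0.06 for dicarbonyl genes, -0.07 to -0.03 for NRF2 targets and 0.01 to 0.22 for olfactory and 0.03 to 0.22 for vomeronasal receptors. The medians also ranged from -0.02 to 0.08 for cytosolic ribosomal proteins, -0.04 to -0.01 for mitochondrial biogenesis and dynamics, and -0.04 to 0.0007 for the TCA cycle. The cause was not tested.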
